A study of Oryza sativa with 12 samples.

Results

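The genes described here are the calcium sensor kinases and calcineurin B-like proteins of rice (Oryza sativa), in the families CPK, CIPK and CBL. A gene was a member if its symbol or a RefSeq synonym, after an optional Os, was CIPK, CPK, CDPK or CBL followed by a number. The RefSeq table used holds 63 such genes, 24 CPK, 30 CIPK and 9 CBL. Of these, 51 have a probe set on the array that maps to them and to no other gene (20 CPK, 24 CIPK and 7 CBL), among 17905 genes with such a probe set, and all 51 passed the filter on dim probe sets. The other 12, CBL1, CBL7, CIPK3, CIPK9, CIPK13, CIPK15, CIPK27, CIPK33, CPK11, CPK14, CPK25 and CPK28, were not analysed here.

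Calcium ions rise in the cytosol of plant cells after salt, cold, drought, touch, pathogen contact or pollination, and these proteins read the rise. A CPK, or calcium-dependent protein kinase, carries its own calcium-binding EF-hand domain on the same chain as the kinase. A CBL has EF hands and no kinase, and it works by binding a CIPK, a CBL-interacting protein kinase, and bringing it to a membrane where channels and transporters are its substrates.

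Total RNA was hybridised to 12 Affymetrix rice arrays, 3 for each of 4 groups: flag leaf and fully emerged young panicle of KMR3, and the same organs of IL50-7. The flag leaf is the last leaf below the panicle, and the panicle is the inflorescence of rice. IL50-7 is an introgression line, which carries segments of a donor genome in another parent's background, and the title of the series calls it high yielding. The plants of all 4 groups were grown in the field, with no treatment, age or donor parent given in the labels. The labels call the 3 samples of a group biological replicates and say nothing of separate plants or plots, so p-values measure the spread between these samples. All values are log2 intensities after quantile normalization, listed in the order of replicates 1, 2 and 3. Background was log2 4.01, and values at 0.26 lie at the floor. Intensities of different probe sets are not comparable as amounts of transcript.

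Deposited array brightness (trimmed mean) ran from 125 to 296, and arrays correlated across probe sets at 0.896 to 0.961 within a group and at 0.652 to 0.774 between organs. Arrays of different lines in the same organ correlated at 0.903 to 0.967, as highly as replicates of a group. Organ markers followed the labels. Floral MADS-box genes were higher in panicles for 12 of 13 in KMR3 and 13 of 13 in IL50-7, and genes of dividing tissue for 9 of 9 in both lines. Flag leaf genes were lower in panicles for 5 of 7 in KMR3 and 4 of 7 in IL50-7, although 0 of the 7 lay under background on any array. A 3′ to 5′ signal ratio of a GAPDH transcript, a sign of RNA integrity, was 2.54 to 6.32 in leaves and 7.68 to 23.3 in panicles, so it moved with organ. That of actin was 5.85 to 13.6 in leaves and 18.7 to 29.4 in panicles other than IL50-7 panicle replicate 3, which had 7.99, and that of another GAPDH probe set overlapped between organs (1.52 to 12.4 and 0.930 to 20.03). Their part in the organ differences was not tested. Fewer cells of a type and less RNA per cell cannot be told apart in such bulk samples.

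Some arrays stood apart from their groups. Probe sets that were on in the leaves of only 1 line and split the panicle arrays numbered 11. The arrays labelled KMR3 panicle replicate 3 and IL50-7 panicle replicate 2 were opposite to the leaves of their own line at 11 of these 11. KMR3 panicle replicate 1 was opposite at 2 and each other panicle array at 0. The labels were kept. Whether the line labels of those 2 arrays are exchanged was not tested, so every comparison that uses panicles holds for the arrays as labelled, the line differences in panicles most of all. Separately, KMR3 panicle replicate 3 and IL50-7 panicle replicate 1 had the highest RAFTIN1, which encodes an anther tapetum protein of pollen development, at 11.06 and 10.98 against 4.92 to 7.77 in the other panicle arrays. On these same arrays the mean over 12 anther genes was 9.32 and 9.16 (7.15 to 8.83 in the others), and the mean over 7 flag leaf genes was 10.07 and 10.13 (11.07 to 11.31 in the others). The low end of 7.15 was IL50-7 panicle replicate 3. Anther genes did not all go the way of their mean. DTC1 read 3.35 and 2.79 on the pair (3.61 to 7.82 in the others), and PTC1 read 4.14 and 3.61 (4.76 to 5.38 in the others). IL50-7 leaf replicate 1 deviated from the other leaf arrays in the direction of the organ difference, with a correlation of 0.428 over 34316 probe sets, where the other leaf arrays gave -0.152 to 0.098. Marker means on that array went both ways. The mean over 13 floral genes was 3.31 (3.10 to 4.01 in other leaf arrays) and over flag leaf genes 12.71 (12.28 to 12.47). Over 9 genes of dividing tissue it was 3.99 (1.94 to 3.42) and over anther genes 5.04 (4.05 to 4.64). For the genes that these arrays moved most, values without them are given as well.

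The panicle was compared with the flag leaf within each line, and the families divided. In KMR3, 16 of 20 CPK genes were higher in panicles and 1 was lower, while of 24 CIPK genes 5 were higher and 13 lower. In IL50-7, 14 CPK genes were higher and 2 lower, and 3 CIPK genes were higher and 12 lower. The CBL genes went both ways, with 2 of 7 higher and 2 lower in KMR3 and 3 higher and 2 lower in IL50-7. Over all members, 39 of 51 passed in KMR3 (23 higher and 16 lower) and 36 in IL50-7 (20 higher and 16 lower), by limma at an adjusted p under 0.05. Among all 16491 genes tested, 57.4% passed in KMR3, 31.3% higher and 26.1% lower, and 56.5% in IL50-7, 31.2% higher and 25.3% lower. The organ difference is large over the whole array, so the share of members that passed is to be read against those figures. The median panicle minus leaf difference was 1.77 (KMR3) and 1.22 (IL50-7) for CPK, -0.86 and -0.90 for CIPK, and 0.27 and 0.85 for CBL, against 0.13 and 0.14 for all genes tested. On the scale as deposited the KMR3 split over all members was 24 higher and 9 lower, with 6 CIPK genes higher and 7 lower. The IL50-7 split on that scale was 17 higher and 9 lower, with 10 CPK genes higher and 1 lower and 4 CIPK genes higher and 7 lower. The median of all probe sets was 0.31 in KMR3 and 0.15 in IL50-7 on that scale, against -0.11 and -0.06 after quantile normalization. The share of all genes that passed on the deposited scale is not given here, so its counts describe the members only.

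**Figure D1:**
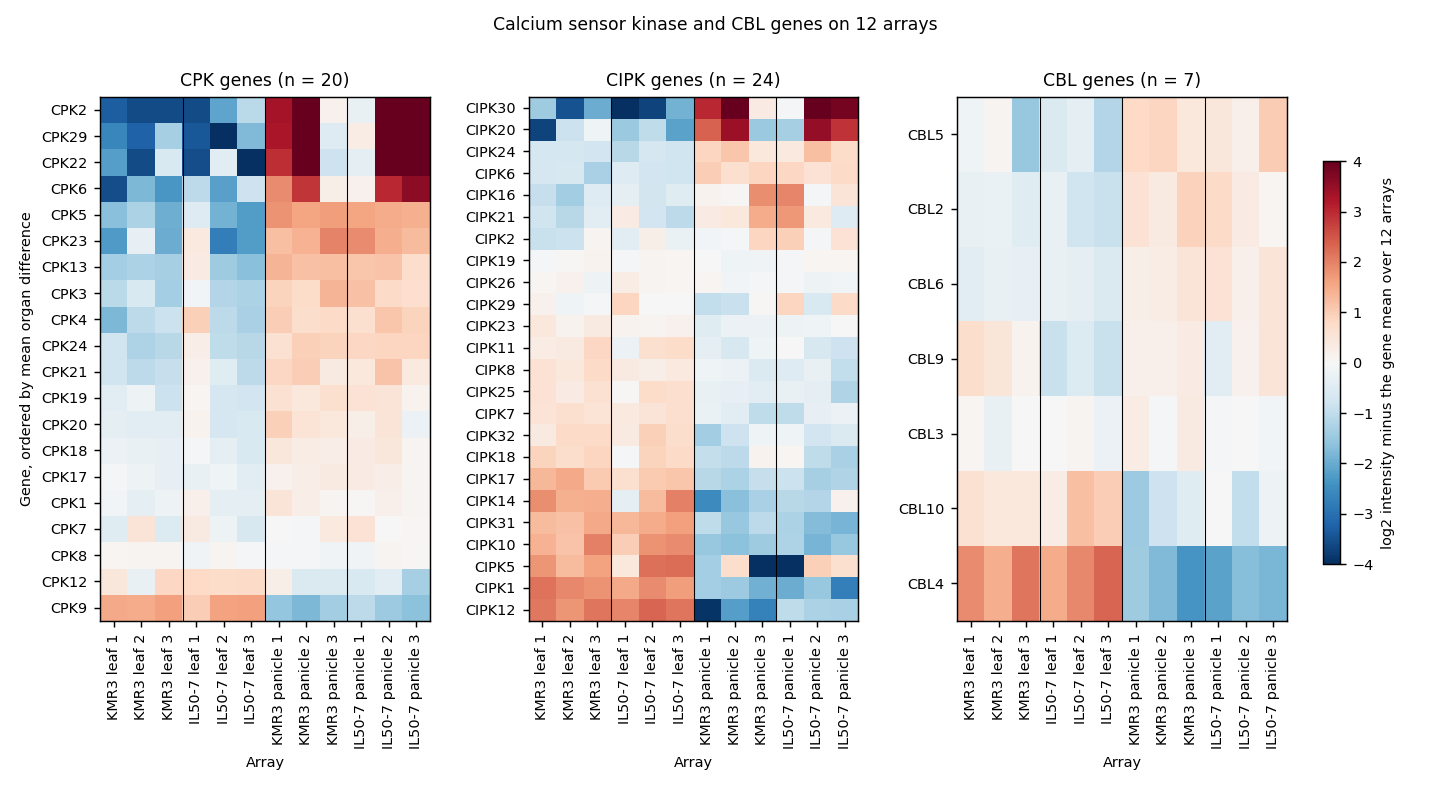
Each row is a gene and each column an array, with colour giving the log2 intensity minus the mean of that gene over 12 arrays, cut at 4 either way. The 20 CPK rows are mostly blue in leaves and red in panicles, the 24 CIPK rows are mostly the reverse, and CPK2, CPK29, CPK22, CIPK30 and CIPK20 are pale in KMR3 panicle replicate 3 and IL50-7 panicle replicate 1.

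Of all members, 19 were higher in the panicles of both lines and 15 were lower in both, and 0 passed in opposite directions (among all genes tested 26.5% were higher in both, 22.5% lower in both and 0.00606% opposite). For CPK these counts were 14 and 1, for CIPK 3 and 12, and for CBL 2 and 2. The leaf and panicle values of a line did not overlap for 41 members in KMR3, where 68.9% of genes tested did not, and for 36 in IL50-7, where 62.5% did not. In all, 43 of 51 members lay above background on all 12 arrays. CPK2, CPK6, CPK29, CIPK30 and CBL5 lay under it on every leaf array, and 0 lay under it on all 12.

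**Figure D2:**
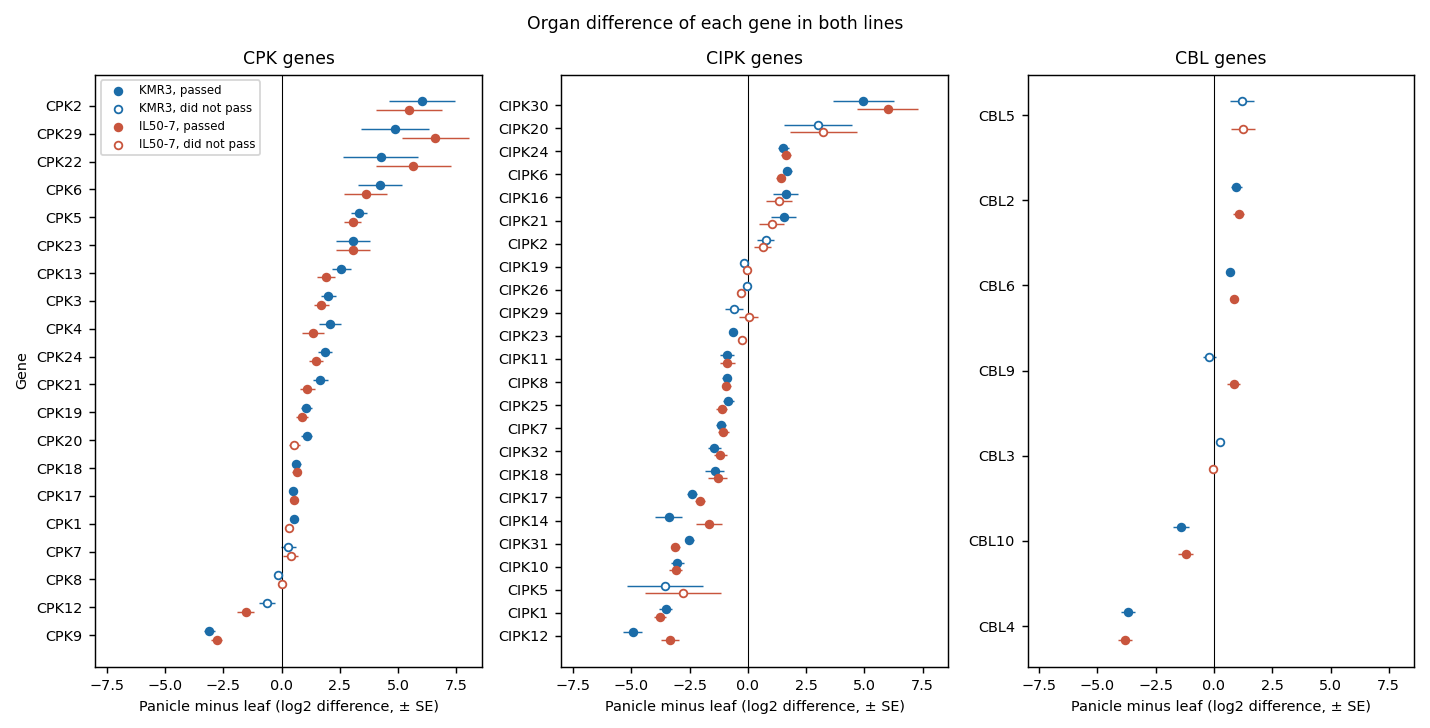
The panicle minus leaf difference of each gene on the log2 scale, with its standard error, is drawn in blue for KMR3 and in red for IL50-7, and filled points passed the test. CPK genes lie mostly right of 0 and CIPK genes mostly left, the widest error bars belong to CPK2, CPK22, CPK29, CIPK5, CIPK20 and CIPK30, and no gene passed in opposite directions in the lines.

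The CPK genes with the largest organ difference were near or under background in leaves and bright in some panicle arrays. Some CDPKs of maize and Arabidopsis are needed for growth of the pollen tube. Whether the rice genes below act in pollen was not tested. CPK2 (LOC4327560, chromosome 1) read 0.55, 0.26 and 0.26 in KMR3 leaves, 0.26, 1.71 and 2.75 in IL50-7 leaves, 7.16, 7.96 and 4.001 in KMR3 panicles, and 3.53, 7.90 and 9.66 in IL50-7 panicles. The leaf and panicle arrays did not overlap, but the panicles themselves divided, with KMR3 replicate 3 and IL50-7 replicate 1 at or under background and the other 4 arrays far above it. CPK2 was higher in panicles by 6.02 ± 1.41 (SE) in KMR3 (at least 5.16-fold, limma adjusted p = 0.00463) and by 5.46 ± 1.41 (SE) in IL50-7 (at least 8.11-fold, adjusted p = 0.00836). Folds written as "at least" are against background.

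CPK29 (LOC4351829, chromosome 12) gave 2.52, 1.90 and 3.81 in KMR3 leaves, 1.72, 0.26 and 3.35 in IL50-7 leaves, 8.39, 9.83 and 4.59 in KMR3 panicles, and 5.42, 9.92 and 9.76 in IL50-7 panicles. The same pair of panicle arrays was dim, at 4.59 and 5.42, and the other 4 lay at 8.39 or more. Its difference was 4.86 ± 1.45 (SE) in KMR3 (at least 12.1-fold, limma adjusted p = 0.0166) and 6.59 ± 1.45 (SE) in IL50-7 (at least 20.6-fold, adjusted p = 0.00321).

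CPK22 (LOC4347564, chromosome 9) read 2.60, 1.21 and 4.19 in KMR3 leaves, 1.26, 4.37 and 0.30 in IL50-7 leaves, 7.73, 9.05 and 3.98 in KMR3 panicles, and 4.44, 9.12 and 9.28 in IL50-7 panicles. Leaf values scattered around background and overlapped those of panicles in KMR3, where replicate 3 of the panicles fell below replicate 3 of the leaves. It was higher by 4.26 ± 1.61 (SE) in KMR3 (limma adjusted p = 0.0476) and by 5.64 ± 1.61 (SE) in IL50-7 (adjusted p = 0.0139). The KMR3 call was lost under 11 of 24 alternatives, and no fold is given because the leaf means lay under background with some leaf arrays above it.

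CPK6 (LOC4331257, chromosome 2) had the same shape at lower brightness, with 0.33, 2.08 and 1.54 in KMR3 leaves, 2.82, 1.70 and 3.06 in IL50-7 leaves, 5.76, 6.74 and 4.11 in KMR3 panicles, and 4.04, 6.89 and 7.46 in IL50-7 panicles. The difference was 4.22 ± 0.93 (SE) in KMR3 (at least 2.89-fold, limma adjusted p = 0.00325) and 3.60 ± 0.93 (SE) in IL50-7 (at least 4.35-fold, adjusted p = 0.00837). Its other probe set was too dim to be tested.

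These genes share 1 pattern across the panicles with members of the other kinase family. Both KMR3 panicle replicate 3 and IL50-7 panicle replicate 1 lay below the other 4 panicle arrays by 2 or more for 6 of 51 members, CPK2, CPK22, CPK29, CIPK5, CIPK20 and CIPK30, or 11.8%, where 1.52% of the 16491 genes tested did. Above the others by 2 or more were 0 members and 0.236% of genes. The pair was picked after its values were seen, so these shares are a description. The means of anther genes and of flag leaf genes also differed on the same arrays, though not every anther gene followed, as given above. Their part in the pattern was not tested. Fitted without these arrays, the differences in KMR3 and IL50-7 were 7.14 and 7.15 for CPK2, 6.32 and 8.01 for CPK29, 5.68 and 7.18 for CPK22, and 4.86 and 4.59 for CPK6. The count of members that passed was then 40 in KMR3 (23 higher and 17 lower) and 35 in IL50-7 (20 higher and 15 lower). Of the 16339 genes tested in that fit, 54.5% passed in KMR3 and 53.5% in IL50-7.

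**Figure D3:**
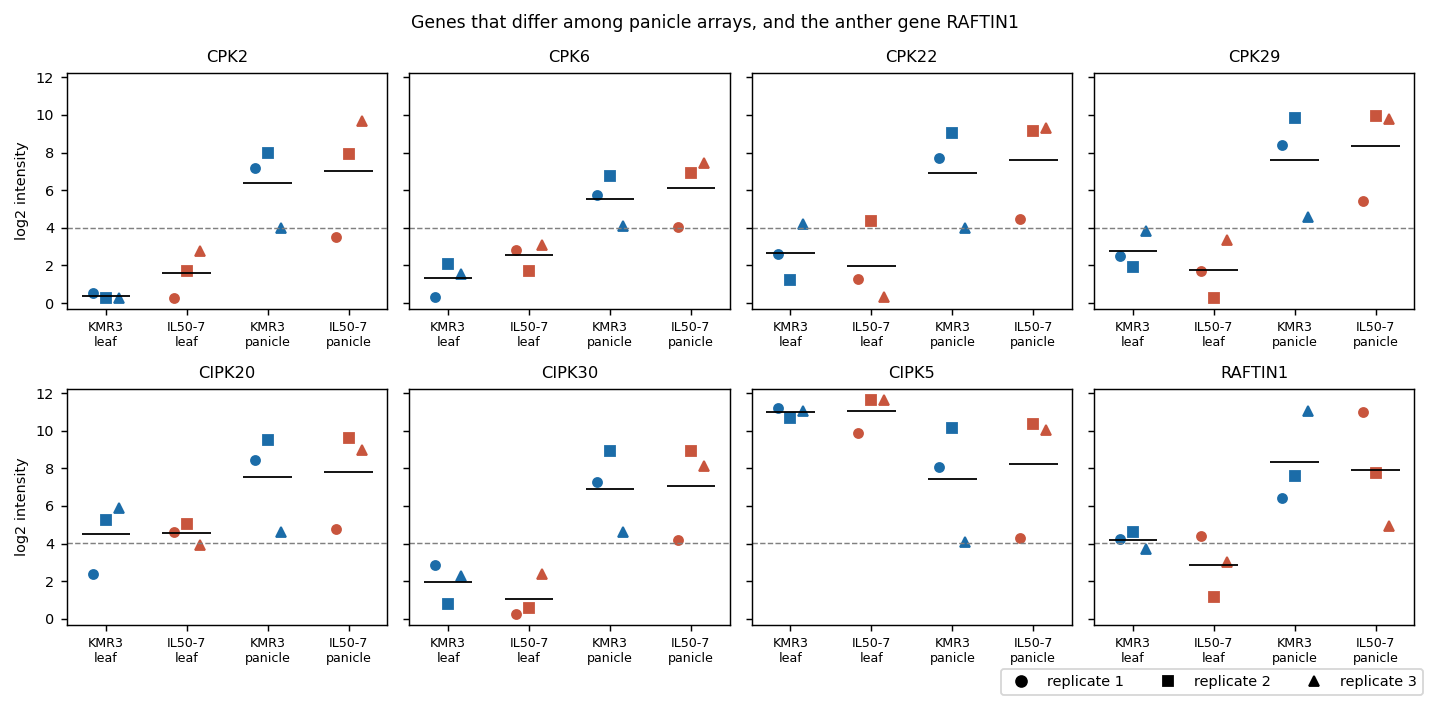
Log2 intensity on each array by group, with circles, squares and triangles for replicates 1, 2 and 3, a bar at the group mean (n = 3) and a dashed line at the background of 4.01. In 7 kinase genes the KMR3 panicle triangle and the IL50-7 panicle circle lie below the other 4 panicle points, while RAFTIN1 is highest at those points.

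Another set of CPK genes was well above background in leaves and uniformly brighter in panicles. CPK5 (LOC4330351, chromosome 2) read 6.85, 7.26 and 6.57 in KMR3 leaves, 8.02, 6.64 and 6.29 in IL50-7 leaves, 10.32, 10.11 and 10.20 in KMR3 panicles, and 10.10, 10.02 and 9.96 in IL50-7 panicles. Every panicle array lay above every leaf array, and the panicle values of both lines lay between 9.96 and 10.32. Its difference was 3.32 ± 0.36 (SE) in KMR3 (9.96-fold, limma adjusted p = 2.68e-05) and 3.04 ± 0.36 (SE) in IL50-7 (8.24-fold, adjusted p = 4.89e-05). The probe set of CPK5 is of a type that can match more than 1 transcript, as are those used for CPK12, CPK18 and CIPK11.

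CPK23, known as SPK and described in rice as a kinase of the developing seed, gave 5.87, 7.81 and 6.14 in KMR3 leaves, 8.53, 5.37 and 5.91 in IL50-7 leaves, 9.34, 9.52 and 10.11 in KMR3 panicles, and 10.02, 9.58 and 9.41 in IL50-7 panicles. Leaf arrays spread widely, with KMR3 replicate 2 and IL50-7 replicate 1 the highest, and none reached the lowest panicle array. Its difference was 3.05 ± 0.72 (SE) in KMR3 (8.29-fold, limma adjusted p = 0.00479) and 3.07 ± 0.72 (SE) in IL50-7 (8.38-fold, adjusted p = 0.00481).

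CPK13, whose overexpression (as OsCDPK7) raised cold, salt and drought tolerance of rice, read 9.998, 10.09 and 10.02 in KMR3 leaves, 11.67, 9.92 and 9.69 in IL50-7 leaves, 12.71, 12.53 and 12.56 in KMR3 panicles, and 12.44, 12.50 and 12.04 in IL50-7 panicles. It was bright everywhere and brighter in panicles, by 2.56 ± 0.40 (SE) in KMR3 (5.91-fold, limma adjusted p = 0.000311) and 1.90 ± 0.40 (SE) in IL50-7 (3.73-fold, adjusted p = 0.00234). A second probe set of CPK13 passed in KMR3 at 1.15 and did not pass in IL50-7 at 0.27. CPK1 read 10.98, 10.67 and 10.87 in KMR3 leaves, 11.30, 10.69 and 10.70 in IL50-7 leaves, 11.59, 11.34 and 11.19 in KMR3 panicles, and 11.12, 11.30 and 11.20 in IL50-7 panicles, a difference of 0.54 that passed in KMR3 and of 0.31 that did not in IL50-7.

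The rest of the CPK genes that were higher in panicles differed less. CPK3, CPK24, CPK4, CPK21, CPK19, CPK18 and CPK17 passed in both lines, with differences of 0.47 to 2.06 in KMR3 and 0.53 to 1.71 in IL50-7. Among them CPK4 and CPK21 raise salt tolerance when overexpressed in rice, and CPK18 phosphorylates the MAP kinase MPK5. CPK20 passed in KMR3 at 1.07 and did not in IL50-7 at 0.54. CPK7 (0.28 and 0.38) and CPK8 (-0.17 and 0.03) passed in neither line.

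CPK9 was the CPK gene lower in the panicles of both lines. In rice it has been linked to drought tolerance and spikelet fertility. Its probe set read 8.59, 8.54 and 8.69 in KMR3 leaves, 8.05, 8.65 and 8.69 in IL50-7 leaves, 5.53, 5.27 and 5.66 in KMR3 panicles, and 6.01, 5.62 and 5.41 in IL50-7 panicles. All leaf arrays lay at 8.05 or more and all panicle arrays at 6.01 or less. CPK9 fell by 8.69-fold in KMR3 (log2 difference -3.12 ± 0.24 (SE), limma adjusted p = 2.1e-06) and by 6.91-fold in IL50-7 (-2.79 ± 0.24 (SE), adjusted p = 4.13e-06).

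CPK12, which promotes salt tolerance in rice, gave 6.74, 6.01 and 7.12 in KMR3 leaves, 7.09, 7.03 and 7.06 in IL50-7 leaves, 6.53, 5.72 and 5.72 in KMR3 panicles, and 5.69, 5.86 and 4.97 in IL50-7 panicles. The lines overlapped in leaves and in panicles, and KMR3 leaf replicate 2 lay within the KMR3 panicle range. It was lower in IL50-7 panicles (-1.55 ± 0.35 (SE), limma adjusted p = 0.00374) and did not pass in KMR3 (-0.63 ± 0.35 (SE), adjusted p = 0.159). The test of the difference between the lines did not pass either (interaction -0.92, limma adjusted p = 1.0).

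IL50-7 leaf replicate 1 moved several of these estimates. It lay above all 5 other leaf arrays by 1 or more for CPK4, CPK13 and CPK24, 3 of 51 members or 5.88%, where 4.98% of genes tested did, and it lay below them by 1 or more for CIPK14, 1.96% of members against 1.2% of genes. CPK4 in that array, at 11.37, was within the IL50-7 panicle range, while the other leaf arrays of both lines held 8.61 to 9.54. Without it the CPK4 difference in IL50-7 was 2.06 (limma adjusted p = 0.000109) in place of 1.35 (adjusted p = 0.0385), beside 2.06 in KMR3. CPK23 went from 3.07 to 4.02, CPK13 from 1.90 to 2.52, and CPK24 from 1.47 to 1.91. The CPK4 call in IL50-7 was lost under 15 of 25 alternatives.

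**Figure D4:**
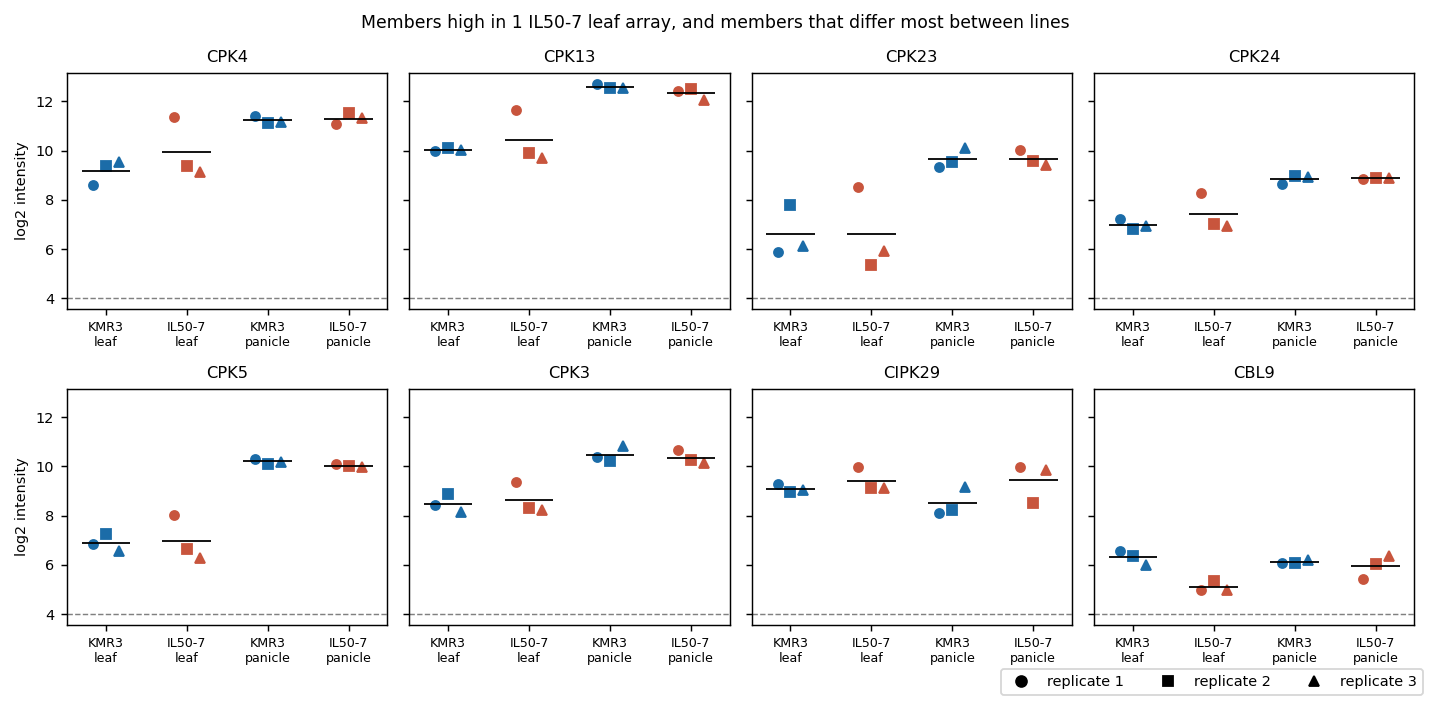
Log2 intensity on each array by group, with circles, squares and triangles for replicates 1, 2 and 3, a bar at the group mean (n = 3) and a dashed line at the background of 4.01. The circle of IL50-7 leaf is above the other leaf points for CPK4, CPK13, CPK23, CPK24, CPK5 and CPK3, the IL50-7 panicle points of CIPK29 divide, and the leaf points of CBL9 separate by line.

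Of the CIPK genes, CIPK30 (LOC4325611, chromosome 1) had the largest rise in panicles. It read 2.84, 0.78 and 2.28 in KMR3 leaves, 0.26, 0.57 and 2.38 in IL50-7 leaves, 7.27, 8.91 and 4.59 in KMR3 panicles, and 4.20, 8.93 and 8.10 in IL50-7 panicles. Every leaf array was under background and every panicle array above it, with KMR3 replicate 3 and IL50-7 replicate 1 only just above. The difference was 4.96 ± 1.30 (SE) in KMR3 (at least 7.55-fold, limma adjusted p = 0.00876) and 6.01 ± 1.30 (SE) in IL50-7 (at least 8.39-fold, adjusted p = 0.00298). Without that pair of panicle arrays it was 6.07 and 7.38.

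CIPK20 and CIPK5 carried the same division of the panicle arrays and did not pass. CIPK20 gave 2.40, 5.23 and 5.90 in KMR3 leaves, 4.62, 5.06 and 3.95 in IL50-7 leaves, 8.44, 9.50 and 4.61 in KMR3 panicles, and 4.77, 9.59 and 8.98 in IL50-7 panicles, and KMR3 panicle replicate 3 and IL50-7 panicle replicate 1 lay within the leaf range. Its difference was 3.01 ± 1.45 (SE) in KMR3 (limma adjusted p = 0.109) and 3.24 ± 1.45 (SE) in IL50-7 (adjusted p = 0.0896). Without those 2 arrays it passed, at 4.44 (limma adjusted p = 0.00244) and 4.73 (adjusted p = 0.00168). CIPK5 was bright in leaves and read 8.08, 10.13 and 4.08 in KMR3 panicles and 4.31, 10.37 and 10.06 in IL50-7 panicles. With all arrays its difference was -3.55 and -2.80 (limma adjusted p = 0.0951 and 0.188), and without the pair -1.87 and -0.83 (adjusted p = 0.036 and 0.324), so KMR3 then passed. The pair was picked after its values were seen, and leaving it out removes the lowest panicle values of both genes. The adjusted p without the pair is therefore a description and no separate test.

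CIPK24 is the rice SOS2, the kinase of the Salt Overly Sensitive pathway that activates the sodium exporter SOS1 together with CBL4, the rice SOS3. CIPK24 read 9.46, 9.46 and 9.38 in KMR3 leaves, 9.04, 9.47 and 9.35 in IL50-7 leaves, 11.03, 11.28 and 10.59 in KMR3 panicles, and 10.54, 11.36 and 10.89 in IL50-7 panicles. Panicle arrays all lay above leaf arrays, by 1.53 ± 0.23 (SE) in KMR3 (2.88-fold, limma adjusted p = 0.000235) and 1.64 ± 0.23 (SE) in IL50-7 (3.12-fold, adjusted p = 0.000142). Its partner went the other way. CBL4 (LOC4339432, chromosome 5) read 8.93, 8.48 and 9.18 in KMR3 leaves, 8.50, 8.95 and 9.37 in IL50-7 leaves, 5.61, 5.27 and 4.67 in KMR3 panicles, and 4.88, 5.34 and 5.19 in IL50-7 panicles, with no overlap between organs. CBL4 fell by 12.9-fold in KMR3 (log2 difference -3.68 ± 0.31 (SE), limma adjusted p = 4.08e-06) and by 14.0-fold in IL50-7 (-3.81 ± 0.31 (SE), adjusted p = 3.03e-06).

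CBL10, which in Arabidopsis partners SOS2 in shoots, was also lower in panicles. It read 7.98, 7.81 and 7.81 in KMR3 leaves, 7.66, 8.56 and 8.37 in IL50-7 leaves, 5.92, 6.53 and 6.90 in KMR3 panicles, and 7.39, 6.39 and 7.18 in IL50-7 panicles, and the organs did not overlap within a line. The fall was 2.67-fold in KMR3 (-1.42 ± 0.33 (SE), limma adjusted p = 0.00475) and 2.32-fold in IL50-7 (-1.21 ± 0.33 (SE), adjusted p = 0.0115). In each line CBL4 and CBL10 were lower in panicles and CIPK24 was higher. On the scale as deposited CBL10 passed in neither line (-0.855 in KMR3 and -0.945 in IL50-7, limma adjusted p = 0.165 and 0.136).

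**Figure D5:**
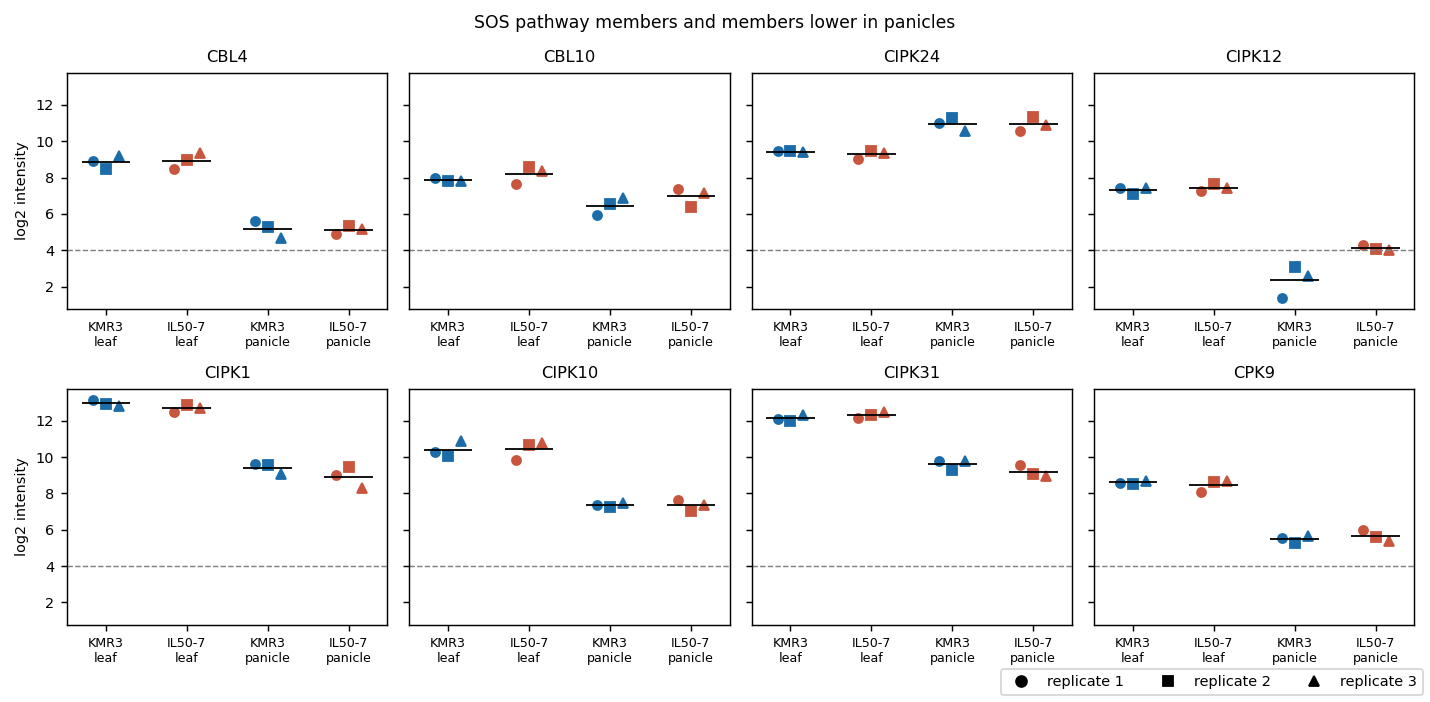
Log2 intensity on each array by group, with circles, squares and triangles for replicates 1, 2 and 3, a bar at the group mean (n = 3) and a dashed line at the background of 4.01. CIPK24 is higher in panicles, the other 7 genes are lower, and CIPK12 falls under background in KMR3 panicles and sits at it in IL50-7 panicles.

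CIPK6 gave 10.002, 10.03 and 9.36 in KMR3 leaves, 10.16, 9.91 and 9.87 in IL50-7 leaves, 11.65, 11.30 and 11.51 in KMR3 panicles, and 11.50, 11.24 and 11.43 in IL50-7 panicles. The organs did not overlap, and it was higher in panicles by 1.69 ± 0.19 (SE) in KMR3 (3.22-fold, limma adjusted p = 3.22e-05) and 1.41 ± 0.19 (SE) in IL50-7 (2.66-fold, adjusted p = 0.000115). CIPK16 read 5.81, 5.32 and 6.21 in KMR3 leaves, 6.33, 5.98 and 6.25 in IL50-7 leaves, 6.86, 6.76 and 8.59 in KMR3 panicles, and 8.67, 6.66 and 7.25 in IL50-7 panicles, and CIPK21 read 7.34, 7.03 and 7.70 in KMR3 leaves, 8.49, 7.40 and 7.10 in IL50-7 leaves, 8.49, 8.56 and 9.63 in KMR3 panicles, and 9.90, 8.53 and 7.64 in IL50-7 panicles. In both genes KMR3 panicle replicate 3 and IL50-7 panicle replicate 1 were the brightest arrays, opposite to the pattern of CPK2. Each passed in KMR3 (CIPK16 1.62 ± 0.55 (SE), limma adjusted p = 0.0314, and CIPK21 1.53 ± 0.55 (SE), adjusted p = 0.037) and not in IL50-7 (1.34 and 1.03). The KMR3 call was lost under 5 of 25 alternatives for CIPK16 and 9 of 25 for CIPK21. Without those arrays the KMR3 differences were 1.02 and 1.17. The probe set of CIPK16, like the brightest of CIPK2, is of a type that may cross-hybridise.

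The CIPK gene with the largest fall in KMR3 panicles was CIPK12. CIPK12 (LOC4325613, chromosome 1), which raises drought tolerance when overexpressed in rice, read 7.41, 7.07 and 7.43 in KMR3 leaves, 7.25, 7.63 and 7.44 in IL50-7 leaves, 1.37, 3.09 and 2.61 in KMR3 panicles, and 4.29, 4.05 and 3.996 in IL50-7 panicles. Leaves of both lines lay between 7.07 and 7.63, while all KMR3 panicle arrays were under background and IL50-7 panicle arrays stood at it. CIPK12 fell by at least 9.82-fold in KMR3 (log2 difference -4.95 ± 0.39 (SE), limma adjusted p = 2.84e-06) and differed by -3.33 ± 0.39 (SE) in IL50-7 (adjusted p = 4.53e-05). In the gene order of the RefSeq table CIPK12 lies next to CIPK30, with 0 genes between them, and the 2 neighbours had opposite organ differences.

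CIPK1 gave 13.15, 12.90 and 12.80 in KMR3 leaves, 12.50, 12.88 and 12.67 in IL50-7 leaves, 9.64, 9.55 and 9.07 in KMR3 panicles, and 9.02, 9.48 and 8.27 in IL50-7 panicles. Leaf arrays lay at 12.50 or more and panicle arrays at 9.64 or less, and the fall was 11.6-fold in KMR3 (-3.53 ± 0.27 (SE), limma adjusted p = 2.27e-06) and 13.6-fold in IL50-7 (-3.76 ± 0.27 (SE), adjusted p = 1.32e-06). CIPK10 read 10.27, 10.03 and 10.89 in KMR3 leaves, 9.86, 10.68 and 10.76 in IL50-7 leaves, 7.37, 7.24 and 7.46 in KMR3 panicles, and 7.64, 7.04 and 7.37 in IL50-7 panicles. Its falls were 8.21-fold (-3.04 ± 0.28 (SE), limma adjusted p = 8.37e-06) and 8.49-fold (-3.09 ± 0.28 (SE), adjusted p = 7.03e-06), and its 3 other probe sets all passed as lower in both lines, at -3.78 to -2.74.

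CIPK31, also listed as the kinase CK1, read 12.08, 11.98 and 12.32 in KMR3 leaves, 12.12, 12.30 and 12.46 in IL50-7 leaves, 9.80, 9.30 and 9.76 in KMR3 panicles, and 9.55, 9.06 and 8.95 in IL50-7 panicles. It fell by 5.67-fold in KMR3 (-2.51 ± 0.19 (SE), limma adjusted p = 2.45e-06) and 8.61-fold in IL50-7 (-3.11 ± 0.19 (SE), adjusted p = 5.23e-07), the smallest adjusted p of any member in IL50-7. CIPK17 read 8.79, 8.98 and 8.51 in KMR3 leaves, 8.10, 8.49 and 8.55 in IL50-7 leaves, 6.35, 6.18 and 6.52 in KMR3 panicles, and 6.61, 6.14 and 6.25 in IL50-7 panicles. Both genes separated the organs on every array, and CIPK17 fell by 5.32-fold and 4.14-fold (limma adjusted p = 6.02e-06 and 1.85e-05).

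CIPK14, a kinase of the elicitor response in rice cells, gave 9.99, 9.54 and 9.57 in KMR3 leaves, 7.73, 9.40 and 10.14 in IL50-7 leaves, 5.60, 6.46 and 6.84 in KMR3 panicles, and 7.03, 6.96 and 8.29 in IL50-7 panicles. In KMR3 the organs were far apart, while in IL50-7 leaf replicate 1 lay below panicle replicate 3. The difference was -3.40 ± 0.57 (SE) in KMR3 (10.6-fold lower, limma adjusted p = 0.000518) and -1.66 ± 0.57 (SE) in IL50-7 (3.16-fold lower, adjusted p = 0.0322). Without IL50-7 leaf replicate 1 the IL50-7 difference was -2.34, and the call in IL50-7 was lost under 8 of 25 alternatives.

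Smaller falls in both lines were seen for CIPK18, CIPK32, CIPK7, CIPK25, CIPK8 and CIPK11, between -1.43 and -0.84 in KMR3 and between -1.30 and -0.88 in IL50-7. CIPK7 read 12.22, 12.33 and 12.23 in KMR3 leaves, 12.09, 12.19 and 12.36 in IL50-7 leaves, 11.42, 11.25 and 10.68 in KMR3 panicles, and 10.67, 11.36 and 11.44 in IL50-7 panicles, and its second probe set fell further, by 10.5-fold in KMR3 and 15.8-fold in IL50-7. CIPK11 rested on the processing most, since its calls were lost under 9 of 25 alternatives in KMR3 and 11 in IL50-7. CIPK23, which with CBL1 activates the potassium channel AKT1 and is induced by pollination in rice, was lower in KMR3 panicles (-0.62 ± 0.14 (SE), limma adjusted p = 0.00328) and did not pass in IL50-7 (-0.27). The second probe set of CIPK23 had the other sign, at 0.63 and 0.88, and did not pass, and AKT1 itself did not pass (-0.57 and -0.59).

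CIPK19 read 10.93, 11.07 and 11.17 in KMR3 leaves, 10.98, 11.12 and 11.10 in IL50-7 leaves, 11.02, 10.84 and 10.88 in KMR3 panicles, and 10.93, 11.11 and 11.08 in IL50-7 panicles, between 10.84 and 11.17 on every array. It passed in neither line (-0.15 and -0.02), and neither did CIPK26, CIPK29 and CIPK2. The second probe set of CIPK2 passed as higher in both lines (0.98 and 1.44) and a dimmer one as lower in KMR3 (-2.02), so the probe sets of CIPK2 disagree. Members that passed had 10 tested additional probe sets in each line, of which 7 passed in the same direction, 0 in the opposite one, and 3 did not pass.

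Among the remaining CBL genes, CBL6 read 10.26, 10.41 and 10.36 in KMR3 leaves, 10.38, 10.31 and 10.11 in IL50-7 leaves, 10.92, 10.99 and 11.19 in KMR3 panicles, and 11.26, 10.88 and 11.21 in IL50-7 panicles, and CBL2 read 7.42, 7.44 and 7.23 in KMR3 leaves, 7.42, 6.91 and 6.81 in IL50-7 leaves, 8.29, 8.06 and 8.63 in KMR3 panicles, and 8.48, 8.05 and 7.78 in IL50-7 panicles. Panicle arrays lay above leaf arrays for both genes in both lines. CBL6 was higher by 0.70 ± 0.14 (SE) in KMR3 and 0.85 ± 0.14 (SE) in IL50-7 (limma adjusted p = 0.00202 and 0.000553), and CBL2, whose Arabidopsis counterpart sits at the vacuole membrane, by 0.96 ± 0.24 (SE) and 1.06 ± 0.24 (SE) (adjusted p = 0.00659 and 0.00404). CBL3 read 9.88, 9.51 and 9.80 in KMR3 leaves, 9.78, 9.91 and 9.58 in IL50-7 leaves, 10.09, 9.74 and 10.18 in KMR3 panicles, and 9.74, 9.78 and 9.69 in IL50-7 panicles, with overlapping organs in both lines and no call (0.27 and -0.02). CBL5 was under background on all leaf arrays, at 1.90 to 3.53, and reached 3.64 to 4.42 in panicles without passing (limma adjusted p = 0.0746 and 0.068).

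IL50-7, the line named in the series title, was compared with KMR3 in each organ. No member passed in either organ. The panicle comparison includes the 2 arrays that were opposite to the leaves of their line. In leaves limma called 0 of 51 members (0.0728% of genes tested passed), 1 had an unadjusted p under 0.05 (4.68% of genes), and the lines did not overlap for 2 (9.44% of genes). In panicles it called 0 (0.0% of genes), 3 had an unadjusted p under 0.05 (2.35% of genes), and 5 did not overlap (8.39% of genes). Probes may match the sequence of 1 line better than the other, which was not tested.

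CBL9 had the smallest p in leaves. It read 6.58, 6.36 and 6.004 in KMR3 leaves, 4.97, 5.33 and 4.99 in IL50-7 leaves, 6.08, 6.06 and 6.19 in KMR3 panicles, and 5.42, 6.04 and 6.37 in IL50-7 panicles. The 3 KMR3 leaf arrays all lay above the 3 IL50-7 leaf arrays, and the panicles overlapped. The leaf difference, IL50-7 minus KMR3, was -1.22 ± 0.29 (SE) (2.33-fold lower in IL50-7), with a limma unadjusted p of 0.00124 and an adjusted p of 0.36. A second probe set of CBL9 gave -0.59 and overlapped, and both probe sets are of a type that may cross-hybridise. CBL9 was higher in panicles than in leaves in IL50-7 (0.85 ± 0.29 (SE), limma adjusted p = 0.0302) and not in KMR3 (-0.21 ± 0.29 (SE), adjusted p = 0.582), and the test of that difference did not pass (interaction 1.06 ± 0.40 (SE), adjusted p = 1.0). The IL50-7 call was lost under 7 of 25 alternatives, and this organ difference and the leaf line difference share the same IL50-7 leaf arrays. Next in leaves were CIPK17 at -0.38 (limma unadjusted p = 0.0997) and CPK4 at 0.78 (unadjusted p = 0.131), whose values are given above and whose lines overlapped.

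In panicles CIPK12 had the smallest p. The KMR3 panicle arrays, at 1.37, 3.09 and 2.61, all lay under the IL50-7 panicle arrays, at 4.29, 4.05 and 3.996, and leaves of the lines overlapped. The difference was 1.75 ± 0.39 (SE), or at least 1.07-fold against background, with a limma unadjusted p of 0.000905 and an adjusted p of 1.0. Only 2 of the 6 panicle values exceeded background, and a second probe set of CIPK12 had the opposite sign, with panicle means of 3.97 in KMR3 and 2.34 in IL50-7. The interaction for CIPK12 was 1.62 ± 0.56 (SE) (limma unadjusted p = 0.0138, adjusted p = 1.0), the smallest p among 51 members. CBL9, above, was next and then CIPK31 at -0.60 (unadjusted p = 0.0504). Limma called 0 members for the interaction (0.0243% of genes passed), with 2 at an unadjusted p under 0.05 (3.44% of genes).

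CIPK29 (LOC4344285, chromosome 7) read 9.28, 8.95 and 9.05 in KMR3 leaves, 9.97, 9.11 and 9.13 in IL50-7 leaves, 8.13, 8.21 and 9.16 in KMR3 panicles, and 9.96, 8.51 and 9.87 in IL50-7 panicles. Its panicle values followed neither the label nor the pair of arrays with high RAFTIN1. KMR3 replicates 1 and 2 and IL50-7 replicate 2 lay at 8.51 or less, and KMR3 replicate 3 and IL50-7 replicates 1 and 3 at 9.16 or more, the same division as at 9 of the 11 probe sets described above. With all arrays the line difference in panicles was 0.95 ± 0.40 (SE) (limma unadjusted p = 0.0384, adjusted p = 1.0). Without the panicle arrays opposite to the leaves of their line (KMR3 replicate 3 and IL50-7 replicate 2) it was 1.74 (adjusted p = 0.042), and without IL50-7 leaf replicate 1 as well 1.74 (adjusted p = 0.00448). CIPK29 was the 1 member to pass in those fits, where 0.404% and 0.739% of genes tested passed. The 2 panicle arrays were left out for values in these same data that divide the panicles as CIPK29 does. Leaving them out removes the CIPK29 values that go against a line difference (9.16 and 8.51). The adjusted p of these fits is therefore a description and no separate test. After CIPK12 and CIPK29, CIPK31 had the smallest p in panicles, at -0.43 (limma unadjusted p = 0.0467) with lines that overlapped.

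Other genes of calcium signalling, and genes related to it, were read from a list of 52 calmodulins, calmodulin-like proteins (CML), channels, pumps, exchangers, SnRK2 kinases and transporter targets. The SnRK2 kinases (SAPK) are on the list as the sister family of the CIPKs and not as calcium sensors. In KMR3 panicles 25 were higher and 6 lower, and in IL50-7 panicles 22 were higher and 8 lower, with a median difference of 0.48 and 0.51, where all genes tested had 0.13 and 0.14. These are 48.1% higher and 11.5% lower in KMR3 (31.3% and 26.1% of all genes tested) and 42.3% higher and 15.4% lower in IL50-7 (31.2% and 25.3%). Between the lines limma called 0 of the 52 in either organ, with 4 at an unadjusted p under 0.05 in leaves (4.68% of all genes tested) and 0 in panicles (2.35%). The largest rise in KMR3 was that of ACA1, of the autoinhibited calcium pump family, which read 1.80, 0.26 and 2.61 in KMR3 leaves, 4.29, 1.80 and 3.39 in IL50-7 leaves, 9.30, 9.36 and 4.88 in KMR3 panicles, and 5.27, 9.31 and 9.79 in IL50-7 panicles. ACA1 divided the panicle arrays as CPK2 did, with KMR3 replicate 3 and IL50-7 replicate 1 the lowest. It was higher by 6.29 ± 1.39 (SE) in KMR3 (limma adjusted p = 0.00322) and 4.97 ± 1.39 (SE) in IL50-7 (adjusted p = 0.0125), and without that pair of panicle arrays by 7.71 and 6.35.

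CML32 was higher by 5.44 in KMR3 and 7.18 in IL50-7, ACA7 by 4.42 and 3.20, and CML15 by 4.30 and 3.54, and each passed in both lines. Without KMR3 panicle replicate 3 and IL50-7 panicle replicate 1, CML32 was higher by 6.28 and 8.33, and CML15 by 4.37 and 3.57, where the IL50-7 call of CML15 was lost (limma adjusted p = 0.0534). Without IL50-7 leaf replicate 1 the IL50-7 difference of CML15 was 5.24 (adjusted p = 6.83e-06). Of the genes that were lower, CML1 fell most and read 12.08, 12.32 and 12.14 in KMR3 leaves, 11.71, 12.19 and 12.20 in IL50-7 leaves, 9.05, 9.26 and 7.40 in KMR3 panicles, and 7.47, 9.19 and 8.14 in IL50-7 panicles. It fell by 12.2-fold in KMR3 and 13.6-fold in IL50-7 (limma adjusted p = 0.000114 and 8.25e-05). AMT1, of the ammonium transporters that CIPK23 phosphorylates in Arabidopsis, differed by -1.83 and -2.14, the glutamate receptor-like channel GLR3.1 by -1.12 and -0.82, and the vacuolar cation channel TPC1 by -0.96 and -0.78, all passing in both lines. CML3 and the SnRK2 kinase SAPK1 passed as lower in IL50-7 panicles (-1.42 and -0.95) and not in KMR3 (-0.55 and -0.75), and the interaction did not pass for either.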

How the data were processed

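Per the labels' protocols, biotin-labelled RNA of 12 samples was hybridised to Affymetrix rice arrays. The authors deposited 1 linear intensity per probe set and array (57381 probe sets). The submitters' processing notes name GCOS 1.2, and the scaling is not given in the sources used here. Intensities were log2 transformed, quantile normalized and floored at the 10th percentile (0.26). Of 57194 probe sets without 187 controls, 34316 with a mean above the 40th percentile were tested. Background, log2 4.01 (intensity 16.1), is the 95th percentile of 23 unspiked controls; the dap, lys, phe and thr controls first named for it were bright and left out. Names came from the platform annotation and RefSeq (ASM3414082v1). A gene is represented by its brightest probe set. limma 3.58.1 (R 4.3.3) fitted 4 group means over 12 arrays with a trend (8 residual and 3.22 prior degrees of freedom) and Benjamini-Hochberg adjustment over all probe sets, at 0.05, and the method was tested on simulated data. The simulated data had independent noise and no arrays that stand apart, so they say nothing of the effect of such arrays. No family was tested against other genes.

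The number of arrays limits the precision. Members and lists were chosen with earlier results of these data known. Values on every array are given for up to 6 members per family with the largest called organ difference each way, the 2 with the highest mean intensity per family, and the 3 smallest p for line differences; for calcium genes up to 4 are named each way. CIPK20, CIPK5 and ACA1 are shown by array because of their panicle values. Deviations of same-numbered samples from their group means correlated at -0.328 to 0.400, above 0.1 for 4 of 18 pairs, so the numbers were not taken to pair samples. No 2 arrays were identical. Alternatives changed the scaling, filter, floor, trend, weights, block, arrays and probe set rule.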

Additional observations from a re-analysis of the deposited data

How the results depend on the processing

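The count of members past the test for the organ difference in KMR3 ran from 33 to 41 (39 as reported) over all alternatives, and that for the organ difference in IL50-7 from 26 to 40 (36 as reported). Besides members whose lost calls are given above, calls were lost most often, under 6 of 25 alternatives, for CPK1 and CPK17 in KMR3 and CPK18 in IL50-7. No member that passed reversed in any of them. Leaving out each array in turn gave 33 to 40 and 27 to 38. In KMR3, 25 of the 39 members kept their call under all alternatives run and 14 lost it under some, and in IL50-7 21 of 36 kept it and 15 lost it. The deposited scale gave 33 and 26, and equal array medians 34 (23 higher, 11 lower) and 32 (17 higher, 15 lower). These counts stand without the share of all genes that passed on the same scale. With equal array medians CIPK8, CIPK11, CIPK18, CIPK23 and CIPK25 were no longer called lower in KMR3, and CIPK2 passed as higher. The family split of CIPK in KMR3 was therefore weaker on that scale too. In IL50-7 CIPK11 lost its call and CIPK16 passed as higher. With the replicate number as a block the counts were 37 and 34, and 0 for both line differences and the interaction. Line differences in leaves and the interaction had 0 members under every alternative. In panicles 1 member, CIPK29, passed without the 2 panicle arrays opposite to the leaves of their line (10 at an unadjusted p under 0.05, 19.6% of members, where 8.5% of genes had one) and 1, again CIPK29, without IL50-7 leaf replicate 1 as well (11, or 21.6%, where 10.6% of genes had one), and leaving out single arrays gave 0 to 0. The cause was not tested. Fits that left out these 3 arrays together, or KMR3 panicle replicate 3 with IL50-7 panicle replicate 1, were chosen after seeing the data. The 2 panicle arrays opposite to the leaves of their line were also picked from values of these data. Signal over background limits CPK2, CPK6, CPK29, CIPK30 and CBL5 in leaves and CIPK12 in panicles.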

Other observations

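The following calmodulin-like genes outside the kinase families were high in the same IL50-7 leaf array as CPK4 and CPK13. CML31 read 7.07, 7.62 and 7.75 in KMR3 leaves, 11.52, 6.25 and 5.41 in IL50-7 leaves, 11.12, 10.81 and 10.51 in KMR3 panicles, and 11.01, 10.34 and 10.18 in IL50-7 panicles, so IL50-7 leaf replicate 1 exceeded every panicle array while the other leaf arrays lay below all of them. CML15 read 12.28, 7.28 and 7.06 in IL50-7 leaves, 6.95, 8.62 and 8.83 in KMR3 leaves and 12.32 to 12.60 in panicles. CML16 read 11.88, 9.15 and 8.57 in IL50-7 leaves and 8.85, 10.10 and 9.97 in KMR3 leaves. These genes were chosen after their values were seen.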
